A study of Homo sapiens with 8 samples.

Results

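The genes described here build the centromere and kinetochore or carry the spindle checkpoint signal. They were chosen by name, as 45 gene symbols with known roles there, with earlier results of these data known. Of these symbols, 44 had at least 1 splicing event in the tables, out of 12067 genes with an event. CENPC1, an older symbol of CENPC, had none of its own. RNA came from U2OS cells, a human osteosarcoma line, 48 h after transfection with 20 nM of either a control siRNA against EGFP or the CHERP#2 siRNA, which targets CHERP, a nuclear protein that binds the U2 snRNP. Stranded mRNA libraries were made from whole cells and from the cytoplasmic fraction, with 2 libraries for each siRNA and fraction, 8 in all, and reads were deposited as counts per alternative splicing event. One cell line, 1 control siRNA and 1 CHERP siRNA were compared, so an effect of the CHERP#2 sequence itself and an effect of losing CHERP cannot be told apart.

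The centromere is the chromosome site where nucleosomes carry the histone variant CENP-A, and the kinetochore is the protein assembly built on it that binds spindle microtubules in mitosis. An inner layer, the constitutive centromere-associated network, contacts CENP-A chromatin, and an outer layer made of KNL1, the MIS12 complex and the NDC80 complex binds microtubules. Unattached kinetochores recruit the checkpoint kinases TTK and BUB1 and the proteins MAD1, MAD2, BUBR1 and BUB3, which hold back the anaphase promoting complex until every chromosome is attached. Transcripts of many of these genes peak in G2 and mitosis in cycling cells. In RNA from a bulk culture, fewer cells in those phases and less of the RNA in each cell cannot be told apart.

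The splicing tables held 29409956 to 35664568 event reads for each whole-cell library and 5370756 to 6580099 for each from the cytoplasm, where a read is counted once in every event it touches. CHERP itself was covered by 103 and 77 reads in the EGFP libraries of whole cells, against 3 and 10 in the CHERP libraries, which is a log2 difference of -3.46 (SE 0.61, limma adjusted p = 0.0215) and the lowest of the 9660 genes tested. In the cytoplasm CHERP had 31 and 21 reads against 3 and 4, under the read minimum for testing. Of 20 mesenchymal markers, 16 had events in whole cells, led by VIM, LGALS1 and FN1. Reads summed over these 16, not scaled by library, were 135382 and 148068 in the EGFP libraries, below the 187749 and 164911 of the CHERP libraries. The part of these markers in the results was not tested. The 2 epithelial markers with events, of 8 listed, summed to between 2 and 22 reads and the 1 blood marker with events, LCP1, of 6 listed, had between 28 and 51.

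A gene's level below is the number of its event reads per base of effective length, summed over its exon skipping and alternative splice site events and divided by a library scale factor. It serves to compare libraries for 1 gene and not 1 gene with another, since genes differ in how many events they have. Differences are log2 values, CHERP siRNA minus EGFP siRNA, tested with limma across all genes whose reads averaged 20 or more over the libraries, and a gene was called at a Benjamini-Hochberg adjusted p below 0.05. In whole cells 43 of the 45 symbols could be tested. Of these genes, 31 were lower with CHERP siRNA, where 13.7% of all genes tested were called lower. None of the 43 was called higher, where 13.3% of all genes were, and 4 lay above 0 without passing the test. Their median difference was -0.97, a ratio of 0.511, against a median of 0.01 over all genes tested. Without the first CHERP library 7 of the 43 were called lower and without the second 8, where 2.77% and 3.09% of all genes were, and without the first or second EGFP library the count was 35 or 28. All 31 kept a negative difference in each of these fits and in every other setting tried, and 7 (CENPA, HJURP, CENPM, NDC80, NUF2, CENPE and CENPF) passed in every one. The share of gene reads that fell on the listed genes was 0.56% and 0.611% in the EGFP libraries, against 0.30% and 0.305% in the CHERP libraries.

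**Figure D1:**
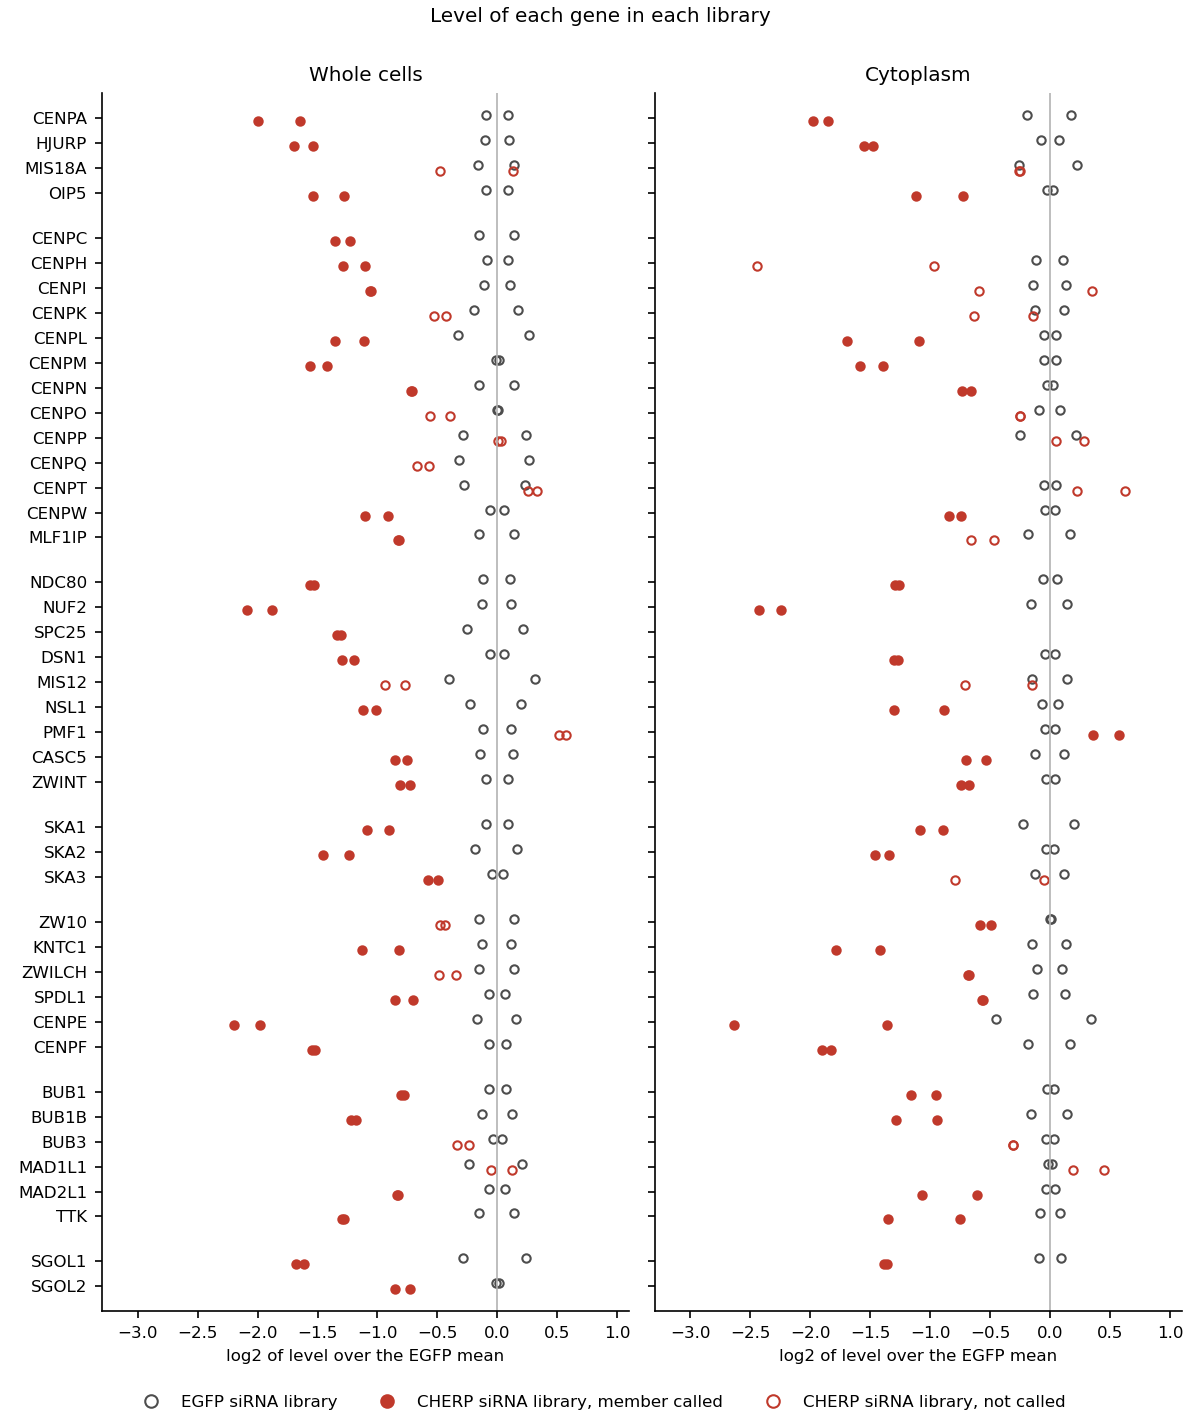
Log2 of each gene's level in each library over the mean level of its 2 EGFP siRNA libraries (x axis), in whole cells (left) and the cytoplasm (right), with genes grouped by role, open grey points for EGFP siRNA and red points for CHERP siRNA, filled where the gene was called. In whole cells the filled points lie left of 0 for 31 of the 43 genes, with CENPE and NUF2 farthest left.

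Genes of centromeric chromatin and CENP-A loading had a median difference of -1.49, and 3 of 4 were called lower. CENPA, the centromeric histone H3 variant, had levels of 2.30 and 2.02 with EGFP siRNA against 0.543 and 0.69 with CHERP siRNA in whole cells. Both CHERP libraries lay below both EGFP libraries, and the difference was -1.80 (SE 0.18, limma adjusted p = 0.00836). HJURP, the chaperone that deposits CENP-A, had 1.15 and 1.00 against 0.37 and 0.331, a difference of -1.59 (SE 0.15, limma adjusted p = 0.0082). OIP5, also called MIS18 beta, a subunit of the complex that licenses this loading, had 4.37 and 4.95 against 1.60 and 1.92, a difference of -1.40 (SE 0.16, limma adjusted p = 0.00973). MIS18A, the partner subunit, had 1.63 and 2.01 against 1.99 and 1.30, so its groups overlapped (difference -0.16, SE 0.25, limma adjusted p = 0.65).

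Of the 13 inner kinetochore genes tested, 8 were lower and the median difference was -0.82. CENPM, a small subunit beside the CENP-H, CENP-I and CENP-K proteins, had the most negative value, with levels of 5.90 and 5.78 with EGFP siRNA against 2.17 and 1.98 with CHERP siRNA (difference -1.49, SE 0.13, limma adjusted p = 0.00813). CENPC, which links CENP-A nucleosomes to the outer kinetochore, had 3.64 and 4.44 against 1.72 and 1.58 (difference -1.28, SE 0.16, limma adjusted p = 0.0114). The groups were apart in both. CENPL was -1.20, CENPH -1.19, CENPI -1.05, CENPW -1.01, MLF1IP (the older symbol of CENPU) -0.82 and CENPN -0.71, all called. CENPW pairs with CENP-T in a histone-fold complex on centromeric DNA, but CENPT had levels of 4.26 and 3 against 4.55 and 4.33 (difference 0.31, SE 0.21, limma adjusted p = 0.308). CENPK had 26.1 and 33.8 against 20.8 and 22.3, which are separate groups whose difference of -0.46 did not pass (SE 0.18, limma adjusted p = 0.116). CENPO, CENPQ and CENPP, which belong to the same peripheral module as CENPU, had differences of -0.48, -0.59 and 0.04 and did not pass either.

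Among the 9 outer kinetochore genes tested, 7 were lower, with a median difference of -1.05. NUF2 and NDC80 form the microtubule-binding arm of the NDC80 complex. NUF2 had levels of 24.4 and 28.8 with EGFP siRNA against 6.26 and 7.23 with CHERP siRNA, a difference of -1.98 (SE 0.16, limma adjusted p = 0.00794). NDC80 had 38.0 and 44.4 against 13.9 and 14.2, a difference of -1.55 (SE 0.14, limma adjusted p = 0.0082). The lowest EGFP library exceeded the highest CHERP library by more than the spread within either group for both. SPC25, from the inner end of the same complex, had 14.9 and 20.6 against 7.20 and 7.03, a difference of -1.30 (SE 0.20, limma adjusted p = 0.0156). Its partner SPC24 had 9, 20, 4 and 7 reads in the same order of libraries, too few to test.

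The MIS12 complex joins the inner kinetochore to KNL1 and the NDC80 complex, and 2 of its 4 subunits were called. DSN1 had levels of 18.2 and 19.8 with EGFP siRNA against 7.73 and 8.30 with CHERP siRNA (difference -1.24, SE 0.13, limma adjusted p = 0.00885), and NSL1 had 4.46 and 5.99 against 2.40 and 2.58 (difference -1.05, SE 0.19, limma adjusted p = 0.0222). MIS12 had 0.911 and 1.5 against 0.706 and 0.63, which missed the threshold (difference -0.80, SE 0.27, limma adjusted p = 0.0906). PMF1, the fourth subunit, had 7.42 and 8.73 against 12 and 11.6, with both CHERP libraries above both EGFP libraries (difference 0.55, SE 0.14, limma adjusted p = 0.0521). PMF1 shares exons with the read-through gene PMF1-BGLAP, so the gene its reads came from is uncertain. CASC5, the older symbol of KNL1, the scaffold that recruits BUB1, had a difference of -0.79, and ZWINT, which binds KNL1, of -0.77, and both were called.

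All 3 subunits of the SKA complex, which tracks depolymerising microtubules with the NDC80 complex, were lower. SKA2 had levels of 24.9 and 31.6 with EGFP siRNA against 12 and 10.3 with CHERP siRNA (difference -1.33, SE 0.18, limma adjusted p = 0.013). SKA1 had a difference of -0.99 and SKA3 of -0.54, the latter with a limma adjusted p of 0.0415.

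Of 6 genes of the fibrous corona, the outermost layer on unattached kinetochores, 4 were lower, with a median difference of -0.87. CENPE, the plus-end directed kinesin that moves chromosomes to the metaphase plate, had 11.8 and 14.8 with EGFP siRNA against 3.38 and 2.91 with CHERP siRNA. Its difference of -2.07 (SE 0.18, limma adjusted p = 0.00813), a ratio of 0.236, was the most negative of the listed genes. CENPF, a large coiled-coil protein that accumulates in G2, had 12.7 and 14 against 4.55 and 4.63 (difference -1.53, SE 0.13, limma adjusted p = 0.00813). The ROD-ZW10-Zwilch complex brings dynein and MAD1 to kinetochores, and 1 of its 3 subunits passed in whole cells. KNTC1, which encodes ROD, was called at -0.97, while ZW10 at -0.45 and ZWILCH at -0.41 were not, with limma adjusted p of 0.0933 and 0.128. SPDL1, the dynein adaptor Spindly, was called at -0.78.

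Among 6 checkpoint genes 4 were lower, with a median difference of -0.81. TTK, the kinase that starts checkpoint signalling and is also called MPS1, had levels of 7.86 and 9.61 with EGFP siRNA against 3.60 and 3.55 with CHERP siRNA (difference -1.28, SE 0.15, limma adjusted p = 0.011). BUB1B, which encodes BUBR1, had 10.1 and 12 against 4.76 and 4.89 (difference -1.19, SE 0.15, limma adjusted p = 0.0113). MAD2L1, which encodes MAD2, had 16.1 and 17.6 against 9.48 and 9.39 (difference -0.83, SE 0.13, limma adjusted p = 0.0161). BUB1 was called at -0.79. MAD1L1, the kinetochore anchor of MAD2, had 4.02 and 2.96 against 3.80 and 3.37, so its groups overlapped. BUB3 had 12.1 and 12.7 against 9.80 and 10.5, groups that were apart by a difference of -0.29 that did not pass (SE 0.13, limma adjusted p = 0.162). The shugoshins protect centromeric cohesion, and both were lower, SGOL1 (SGO1) at -1.62 and SGOL2 (SGO2) at -0.77.

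In the cytoplasm 39 of the genes could be tested, and 26 were lower with CHERP siRNA against 19.9% of all genes tested, while 1, PMF1, was higher against 19.1%. The median difference was -0.84 against -0.01 over all genes. Without the second EGFP library 12 of 38 were called lower, where 9.34% of all genes were, and without the second CHERP library 24 of 39, where 14.2% were. Without the first EGFP or first CHERP library 20 and 19 of 39 were called lower, where 9.69% and 12.7% of all genes were, and PMF1 was not called in any of these fits. NUF2 was again among the most reduced, with cytoplasmic levels of 2.97 and 3.66 with EGFP siRNA against 0.617 and 0.698 with CHERP siRNA (difference -2.31, SE 0.15, limma adjusted p = 0.00379). CENPA had 2.04 and 1.58 against 0.459 and 0.50 (difference -1.88, SE 0.16, limma adjusted p = 0.00421). The groups of both genes were far apart. CENPE had 0.242 and 0.417 against 0.0529 and 0.128 from 5 to 48 reads per library, and its difference of -1.82 carried an SE of 0.46 (limma adjusted p = 0.0375). PMF1 had 4.32 and 4.09 against 6.27 and 5.4, both CHERP libraries above both EGFP libraries (difference 0.47, SE 0.13, limma adjusted p = 0.0438).

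All 6 corona genes were lower in the cytoplasm, with a median of -1.11. KNTC1 had cytoplasmic levels of 0.78 and 0.949 with EGFP siRNA against 0.251 and 0.323 with CHERP siRNA (difference -1.56, SE 0.18, limma adjusted p = 0.00644). ZW10 at -0.54 and ZWILCH at -0.67 passed there, with limma adjusted p of 0.0204 and 0.0174. By role, 3 of 4 centromeric chromatin genes were lower, 4 of 11 inner kinetochore genes, 6 of 8 outer kinetochore genes, 2 of 3 SKA genes, 4 of 6 checkpoint genes and the 1 shugoshin tested, SGOL1 at -1.36. The inner kinetochore had the median nearest 0 among these roles, at -0.55. CENPH, with levels of 2.55 and 2.19 against 0.434 and 1.21, had a difference of -1.69 that did not pass (SE 0.49, limma adjusted p = 0.0533), and its CHERP libraries lay far apart.

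**Figure D2:**
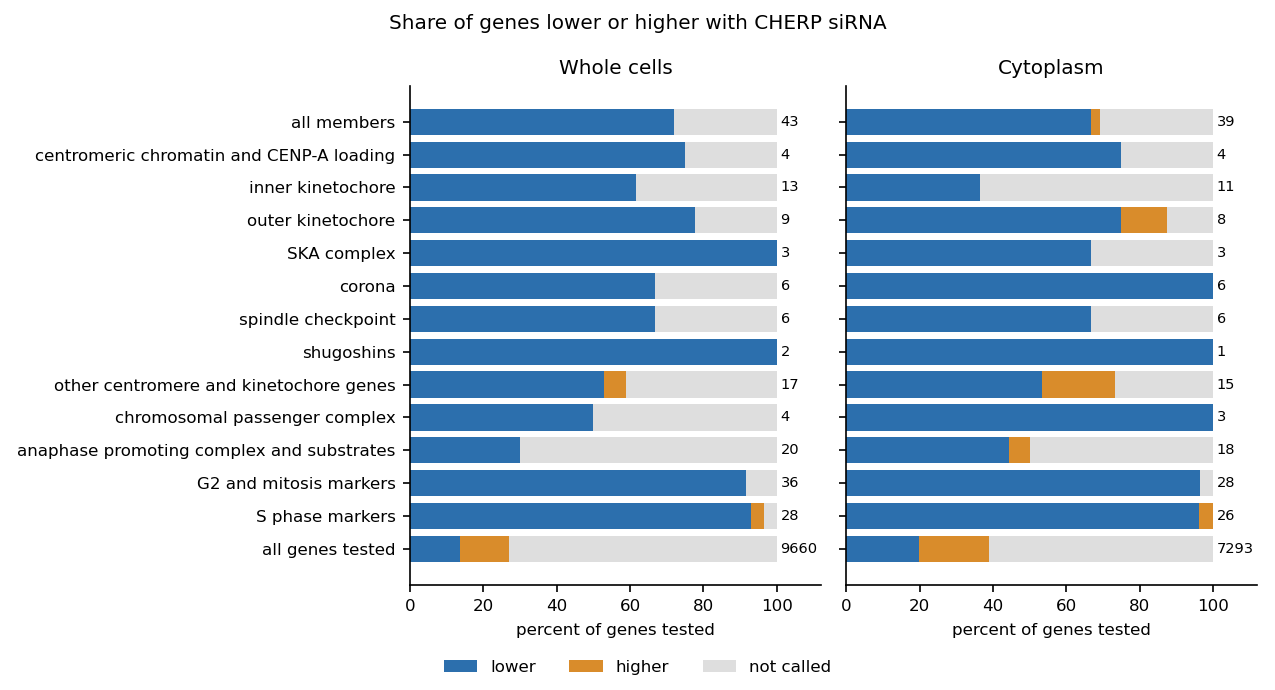
Percent of the genes tested that were called lower (blue), called higher (orange) or not called (grey) with CHERP siRNA, by role and for related lists, in whole cells (left) and the cytoplasm (right), with the number tested beside each bar. Blue covers 31 of 43 listed genes in whole cells and 26 of 39 in the cytoplasm, more of the bar than for all genes tested (13.7% and 19.9%).

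The 39 genes tested in both fractions had the same sign in each. Of these, 24 were called lower in both. A further 7 were called in whole cells alone. Of these, CENPC, SPC25 and SGOL2 had no exon skipping or alternative splice site event with reads in the cytoplasm. That is a lack of events to count, not a measurement that their transcripts were absent. CENPH, CENPI, MLF1IP and SKA3 did not pass there. ZW10 and ZWILCH were called in the cytoplasm alone. Across the 39 genes the differences in the fractions had a Pearson r of 0.912, beside 0.901 across all 7059 genes tested in both, where genes are not independent replicates. The difference between fractions was itself tested with limma, and 0 of the 39 genes passed, where 0% of all genes did. At an unadjusted p below 0.05 there were 1 of the 39 and 389 of 7059. The 1 was CENPI, whose levels in the cytoplasm were 0.23 and 0.278 against 0.169 and 0.323 and whose cytoplasmic minus whole-cell difference was 0.94 (SE 0.39, limma adjusted p = 0.884). The other extreme was KNTC1 at -0.59.

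**Figure D3:**
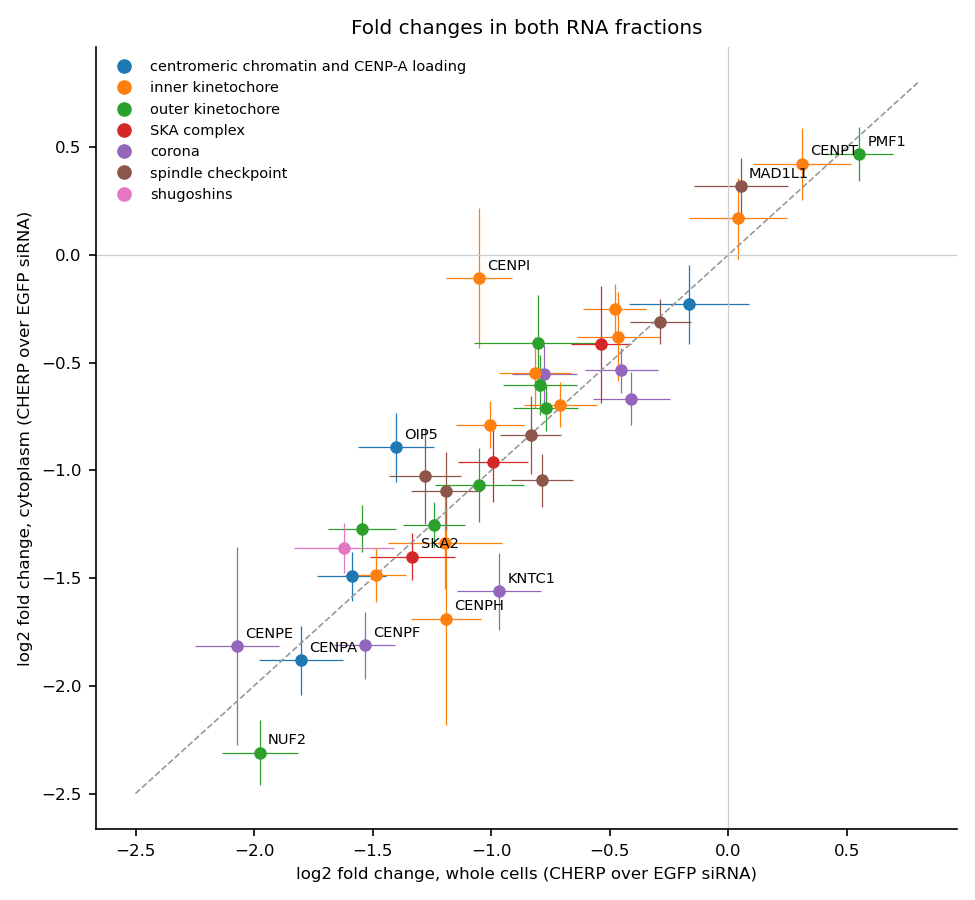
Log2 difference in the cytoplasm (y axis) against that in whole cells (x axis) for the 39 genes tested in both, colored by role, with bars of 1 SE and a dashed line of equal values. All 39 points lie in the lower left or upper right quadrant, and CENPI (-1.05 in whole cells, -0.11 in the cytoplasm) and KNTC1 (-0.97 and -1.56) lie farthest from the diagonal.

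Related lists put these values beside the rest of the division machinery. Over all genes tested in whole cells, 13.7% were called lower and 13.3% higher. Of 17 other centromere and kinetochore genes tested in whole cells, 9 were lower and 1 higher, with a median difference of -0.55. KIF2C, a kinesin that depolymerises microtubules at centromeres, had -1.24. The chromosomal passenger complex corrects faulty attachments, and 2 of its 4 genes were lower, among them CDCA8 (borealin) at -1.16. Of 20 genes of the anaphase promoting complex and its substrates, 6 were lower, with a median of -0.24, and ESPL1 (separase) at -1.87 and CDC20, the activator that the checkpoint inhibits, at -1.48 were among them. G2 and mitosis markers and S phase markers moved with the listed genes. Of 36 G2 and mitosis markers 33 were lower, with a median of -1.25, and of 28 S phase markers 26 were lower and 1 higher, with a median of -1.37. In the cytoplasm the counts lower were 8 of 15, 3 of 3, 8 of 18, 27 of 28 and 25 of 26 for these 5 lists in the same order. Called higher there were 3, 0, 1, 0 and 1. Over all genes tested in the cytoplasm, 19.9% were called lower and 19.1% higher. The part of cell cycle phase in the lower levels of the listed genes was not tested.

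Promoter sequence was read for the genes because many of them moved the same way. RefSeq promoters (GRCh38.p14, 250 bases before to 50 after the start, 300 in all) were matched for 36 of the 45 symbols, which gave 42 promoters. The letters TTTGAA, the core of the cell cycle genes homology region (CHR) known from late cell cycle genes, were searched on both strands together with CCAAT, and the ends of these motifs can share a letter. TTTGAA was present in 17 of the 42 promoters (40.5%), belonging to 16 genes, against 15.2% of 35114 promoters of the same length. Of 28 promoters of genes called lower in whole cells 15 held it, and of the other 14 promoters 2 did. Some genes entered with several promoters, so promoters are not independent. Among the 14, CENPP and MIS12 did so without a match, and SPC24 had too few reads to test. Among the 28, the overlapping promoters of ZWINT share a match, and those of SGOL2 had none. A part of these motifs in the lower levels was not tested. CCAAT was present in 27 of 42 (64.3%) against 34.6%, with 18 of the 28 promoters of genes called lower and 9 of the other 14, and both motifs in 11 (26.2%) against 5.9%. The windows below show where the match lies for members of the CENP-A loading, outer kinetochore and checkpoint groups that were all called lower, with the matched letters in capitals.
CENPA, chr2:26786026-26786055, plus strand: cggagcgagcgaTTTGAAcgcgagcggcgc
HJURP, chr2:233854629-233854658, minus strand: gacgcaaatttgTTTGAAaggcccaatcag
NUF2, chr1:163321958-163321987, plus strand: ggaggcggcaagTTTGAAaagtgatgacgg
SPC25, chr2:168890416-168890445, minus strand: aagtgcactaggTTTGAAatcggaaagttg
BUB1B, chr15:40161034-40161063, plus strand: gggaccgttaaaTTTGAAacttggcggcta
MAD2L1, chr4:120066807-120066836, minus strand: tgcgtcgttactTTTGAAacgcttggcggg
The match began at position -18 of CENPA, -111 of HJURP, 17 of NUF2, -3 of SPC25, -23 of BUB1B and 25 of MAD2L1, counted from the annotated start. CENPE, with the most negative difference of the listed genes, had neither motif in its window.

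The splicing tables also gave each event's inclusion level, the share of a transcript's reads, per effective length, that carry the exon, intron or longer exon end. Effective lengths differ between the fractions, being 144 bases in whole cells and 73 in the cytoplasm for the skipping form of called events. Inclusion levels are therefore compared only within a fraction. Counts of both forms were tested per event with a quasi-binomial model, adjusted within event type. In whole cells 546 events of 44 listed genes were tested and 18 in 9 genes were called, 3.3% of them, against 1.25% of all events of the 5 types. Inclusion was higher with CHERP siRNA in 10 and lower in 8. Exon skipping gave 15 of 390 (3.85% against 1.27% of all), alternative 5′ splice sites 1 of 17 (5.88% against 1.01%) and retained introns 2 of 15 (13.3% against 2.07%), the latter from 3 genes. No mutually exclusive exon event of 98 and no alternative 3′ splice site event of 26 was called by this test, where 9 and 1 had an unadjusted p below 0.05. Overlapping events of 1 gene share reads, and the 15 exon skipping calls rest on 13 exons and 10 skipping junctions. Without the first CHERP library 5 events were called, in CENPW, MAD2L1 and SKA2, and without the second 5, in CENPK, MAD2L1 and SKA2, all among the 18. Calls over all events fell from 1117 to 432 and 446 in these fits. Without the second EGFP library 10 were called, 9 of them among the 18, and without the first 19, of which 15 were, with 754 and 1409 over all events. CASC5 and SKA3 were called in none of these 4 fits. With limma on the log2 odds in place of the quasi-binomial test 0 events were called, of the listed genes or of all genes, and 49 events of the listed genes had an unadjusted p below 0.05.

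**Figure D4:**
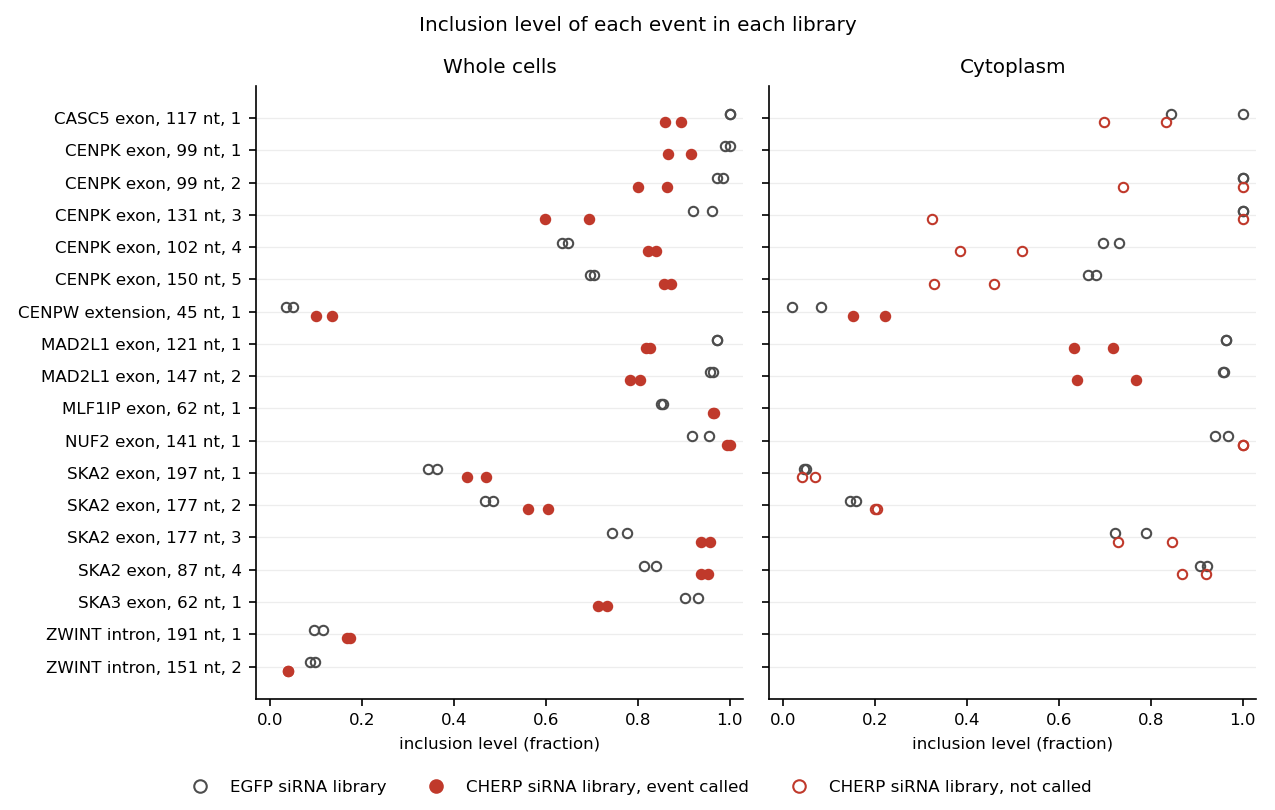
Inclusion level (0 to 1) of the called events in each library of both fractions, 1 line per event, with open grey points for EGFP siRNA and red points for CHERP siRNA, filled where the event was called. The CENPW extension and both MAD2L1 exons have filled points in both fractions, and events without cytoplasmic points were not tested there.

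MAD2L1 carried the event with the lowest p, the skipping of exons 2 and 3 together. Both exons are coding, and their sequences are given because they are the pair missing from the transcript that gained reads, with exon in capitals and the last 20 intron bases before and the first 6 after it in lower case (GRCh37).
MAD2L1 exon 2, chr4:120986821-120986993, minus strand: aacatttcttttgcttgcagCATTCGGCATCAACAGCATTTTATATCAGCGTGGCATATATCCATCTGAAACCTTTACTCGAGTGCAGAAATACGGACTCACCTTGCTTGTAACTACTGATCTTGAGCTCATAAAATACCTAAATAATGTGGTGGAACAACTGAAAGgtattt
MAD2L1 exon 3, chr4:120983124-120983270, minus strand: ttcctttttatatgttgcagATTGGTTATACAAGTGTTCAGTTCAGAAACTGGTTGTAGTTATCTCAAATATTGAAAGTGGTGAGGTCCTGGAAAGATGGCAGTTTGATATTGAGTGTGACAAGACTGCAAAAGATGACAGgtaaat
Exon 2 spans 147 bases and exon 3 spans 121, which leaves a remainder of 1 base after division by 3 for the latter. Inclusion of exon 3 was 0.973 in both EGFP libraries and 0.828 and 0.818 in the CHERP libraries of whole cells (quasi-binomial adjusted p = 1.54e-07). In the cytoplasm it was 0.964 and 0.963 against 0.718 and 0.632 (quasi-binomial adjusted p = 1.05e-04). Exon 2 had 0.964 and 0.957 against 0.784 and 0.806 in whole cells (quasi-binomial adjusted p = 3.22e-06), and 0.959 and 0.958 against 0.768 and 0.64 in the cytoplasm (quasi-binomial adjusted p = 0.00131). All groups were apart. The junction that joins exon 1 to exon 4 had 11 and 15 reads against 54 and 49 in whole cells and 2 and 2 against 8 and 14 in the cytoplasm, and the same junction reads serve both exons. Per library scale the skipping form was 3.79 times its EGFP level in whole cells while the form with exon 3 stood at 0.492 and that with exon 2 at 0.603. GENCODE gives this junction in MAD2L1-203, annotated as a nonsense-mediated decay transcript. The calls for exon 3 and exon 2 in the cytoplasm were lost without the second CHERP library, where 1 event remained called, that of CENPW, and 1 of them was lost without the second EGFP library, where 1 MAD2L1 event remained called.

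**Figure D5:**
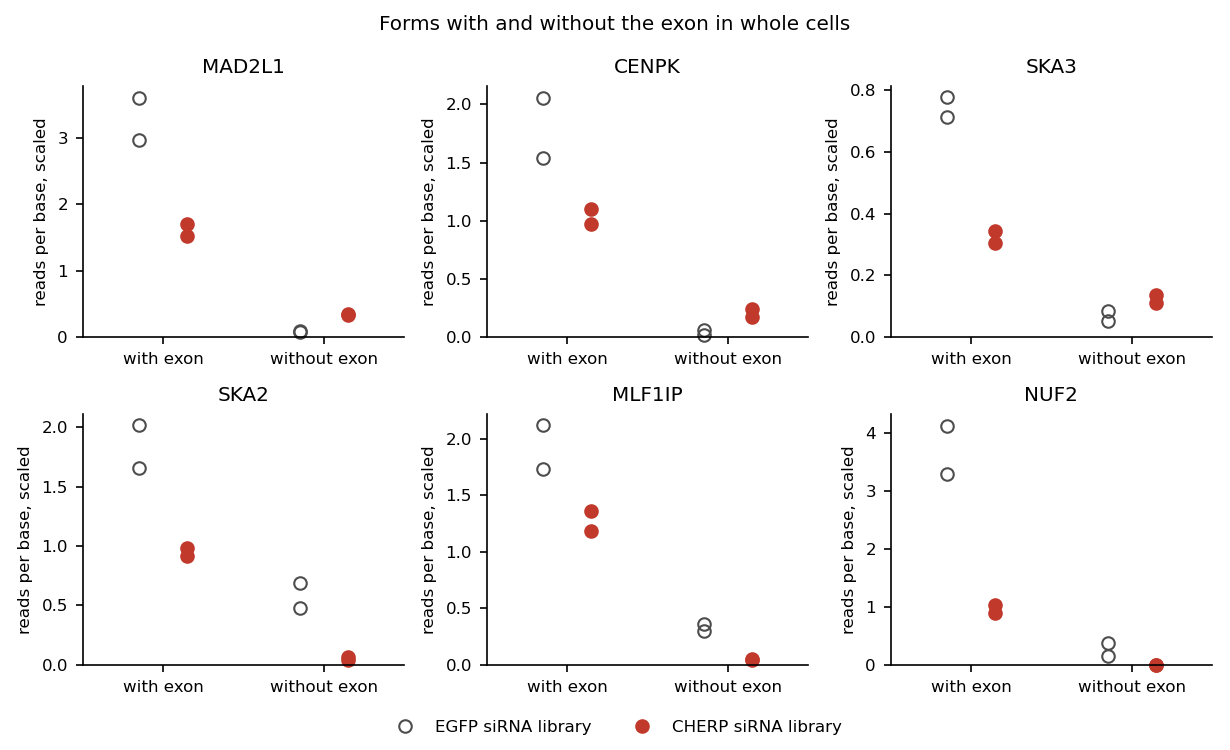
Reads per base of effective length, divided by the library scale factor, of the forms with and without the exon for 6 called events in whole cells, 1 point per library, on linear axes from 0 that differ between panels. For MAD2L1 the inclusion form falls while the skipping form is 3.79 times its EGFP level, and for SKA2 and MLF1IP both forms are lower with CHERP siRNA.

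CENPK, whose summed level did not pass the test, had 5 called events on 2 exons, each also in a longer variant, and the 2 exons moved in opposite directions. The sequences show the 2 exons with the bases that flank them in lower case.
CENPK 99-base exon, chr5:64824740-64824864, minus strand: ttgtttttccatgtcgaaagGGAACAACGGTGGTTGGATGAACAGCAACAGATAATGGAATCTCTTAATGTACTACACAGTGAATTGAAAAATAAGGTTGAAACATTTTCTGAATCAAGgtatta
CENPK 102-base exon, chr5:64850618-64850745, minus strand: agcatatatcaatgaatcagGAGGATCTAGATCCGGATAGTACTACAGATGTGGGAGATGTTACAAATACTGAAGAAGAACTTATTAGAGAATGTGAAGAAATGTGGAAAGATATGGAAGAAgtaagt
The 99-base exon, number 8 of CENPK-202, is coding and has a length divisible by 3. Its inclusion was 0.985 and 0.972 with EGFP siRNA against 0.80 and 0.864 with CHERP siRNA (quasi-binomial adjusted p = 1.06e-04), with 3 and 9 skipping reads against 37 and 25. A 131-base variant of the exon had 0.962 and 0.921 against 0.598 and 0.693 (quasi-binomial adjusted p = 2.75e-04) and shares those skipping reads. Set against a different downstream exon, the 99-base exon had 0.99 and 1 against 0.866 and 0.917 (quasi-binomial adjusted p = 0.0344). That comparison had 1 and 0 skipping reads against 10 and 7, on a junction that no transcript in the annotation used holds. The skipping form of the first comparison, annotated as coding in CENPK-211, stood at 5.04 times its EGFP level and the form with the 99-base exon at 0.578. The 102-base exon went the other way, from 0.636 and 0.647 to 0.84 and 0.822 (quasi-binomial adjusted p = 0.0157), with 58 and 80 skipping reads against 19 and 22. Its 150-base variant had 0.695 and 0.704 against 0.873 and 0.856 (quasi-binomial adjusted p = 0.0113) and shares those skipping reads. No transcript in the annotation used holds that skipping junction. Set against another end of the upstream exon, neither variant was called. The 29 CENPK events with a mean of 50 reads or more in whole cells differed by -0.296 to 0.199. In the cytoplasm the 102-base exon had 0.731 and 0.696 against 0.385 and 0.52, the opposite direction, from few reads and without a call (quasi-binomial adjusted p = 0.576).

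SKA2 had 4 called events in whole cells, all with higher inclusion under CHERP siRNA, on a 177-base exon, with a longer version, and an 87-base exon, shown because both are missing from the form with the lowest ratio.
SKA2 177-base exon, chr17:57196674-57196876, minus strand: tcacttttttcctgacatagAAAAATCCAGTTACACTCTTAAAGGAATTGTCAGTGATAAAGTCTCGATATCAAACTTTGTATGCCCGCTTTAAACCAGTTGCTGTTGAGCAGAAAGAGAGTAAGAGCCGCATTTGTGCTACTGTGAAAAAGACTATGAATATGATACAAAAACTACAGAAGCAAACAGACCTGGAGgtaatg
SKA2 87-base exon, chr17:57208636-57208748, minus strand: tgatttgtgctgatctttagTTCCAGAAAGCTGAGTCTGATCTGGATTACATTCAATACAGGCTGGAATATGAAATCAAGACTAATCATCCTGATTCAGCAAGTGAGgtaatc
Set against the junction that skips both exons, the 177-base exon had 0.777 and 0.744 with EGFP siRNA against 0.937 and 0.956 with CHERP siRNA (quasi-binomial adjusted p = 8.52e-05). That junction had 63 and 104 reads against 10 and 6, and its form stood at 0.0918 of its EGFP level, while the form with the exon stood at 0.516. The 87-base exon, against the same junction, had 0.84 and 0.814 against 0.937 and 0.953 (quasi-binomial adjusted p = 0.0157). Set against the 87-base exon as its neighbour, the 177-base exon had 0.467 and 0.485 against 0.562 and 0.604 (quasi-binomial adjusted p = 0.00344), and a 197-base version that ends 20 bases further downstream had 0.344 and 0.364 against 0.428 and 0.47 (quasi-binomial adjusted p = 0.0239). The 8 SKA2 events with a mean of 50 reads or more in whole cells differed by 0.00578 to 0.186. The 87-base exon set against another end of its upstream exon was not called. None of the 4 called events was called in the cytoplasm. There the 177-base exon against the junction that skips both exons had 0.722 and 0.79 against 0.847 and 0.73, groups that overlapped, and the 87-base exon had 0.907 and 0.922 against 0.921 and 0.869, with a mean that was lower with CHERP siRNA.

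Single exons of MLF1IP, NUF2, SKA3 and CASC5 were called in whole cells, and their sequences are given so that their length and splice sites can be read.
MLF1IP exon 11, chr4:185621968-185622055, minus strand: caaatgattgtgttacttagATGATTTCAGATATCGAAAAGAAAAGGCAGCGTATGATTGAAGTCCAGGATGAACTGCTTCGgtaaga
NUF2 exon 11, chr1:163315448-163315614, plus strand: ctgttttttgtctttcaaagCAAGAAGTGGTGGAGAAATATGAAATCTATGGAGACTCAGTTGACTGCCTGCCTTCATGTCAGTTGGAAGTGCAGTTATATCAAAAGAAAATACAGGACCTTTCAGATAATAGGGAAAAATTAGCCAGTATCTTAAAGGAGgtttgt
SKA3 exon 2, chr13:21746753-21746840, minus strand: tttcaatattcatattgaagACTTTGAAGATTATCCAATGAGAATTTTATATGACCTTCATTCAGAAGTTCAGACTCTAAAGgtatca
CASC5 exon 16, chr15:40937834-40937976, plus strand: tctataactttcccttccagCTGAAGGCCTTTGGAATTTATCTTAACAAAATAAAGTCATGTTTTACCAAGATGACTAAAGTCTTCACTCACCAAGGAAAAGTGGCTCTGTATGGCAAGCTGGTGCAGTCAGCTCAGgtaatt
MLF1IP exon 11 rose from 0.851 and 0.855 to 0.963 and 0.966 (quasi-binomial adjusted p = 0.00447). Its skipping form, annotated as a nonsense-mediated decay transcript in CENPU-205, stood at 0.142 of the EGFP level. NUF2 exon 11, of 141 bases, rose from 0.956 and 0.917 to 1 and 0.993 (quasi-binomial adjusted p = 0.03), with 20 and 56 skipping reads against 0 and 1. SKA3 exon 2, which like MLF1IP exon 11 spans 62 bases, a length not divisible by 3, fell from 0.903 and 0.93 to 0.714 and 0.734 (quasi-binomial adjusted p = 0.0498). SKA3-201, which lacks it, is annotated as a nonsense-mediated decay transcript. CASC5 exon 16, of 117 bases, fell from 1 and 1 to 0.86 and 0.894 (quasi-binomial adjusted p = 0.039), with 0 skipping reads in both EGFP libraries and 10 and 9 in the CHERP libraries, and no transcript in the annotation used joins its neighbours. The calls for NUF2, SKA3 and CASC5 had adjusted p-values close to the threshold.

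CENPW used a longer first exon more often with CHERP siRNA, through a 5′ splice site 45 bases further downstream. The sites are printed with exon in capitals, and the 45 added bases follow.
CENPW short-form 5′ splice site, chr6:126661543-126661551, plus strand: TTGgtgaga
CENPW long-form 5′ splice site, chr6:126661588-126661596, plus strand: GAGgtaagg
CENPW added bases, chr6:126661546-126661590, plus strand: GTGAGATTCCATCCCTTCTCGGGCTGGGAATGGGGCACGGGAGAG
The long form made up 0.049 and 0.0337 with EGFP siRNA against 0.0992 and 0.136 with CHERP siRNA in whole cells (quasi-binomial adjusted p = 0.00342). In the cytoplasm it made up 0.0822 and 0.02 against 0.222 and 0.152 (quasi-binomial adjusted p = 0.0014). The groups were apart in both fractions. The cytoplasmic call was lost without the second EGFP library, without the first CHERP library and with the larger of the event's own and the pooled dispersion. The whole-cell call was lost without the second CHERP library and without the second EGFP library. The long form is CENPW-201 and the short form CENPW-203, both coding.

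ZWINT had the 2 called introns of the listed genes, and they moved in opposite directions. The 191-base intron (chr10:58117947-58118137) was retained at 0.115 and 0.0962 with EGFP siRNA against 0.173 and 0.167 with CHERP siRNA (quasi-binomial adjusted p = 0.0424). The 151-base intron (chr10:58119903-58120053), retained in ZWINT-208, an annotated nonsense-mediated decay transcript, went from 0.0968 and 0.0878 to 0.0387 and 0.0398 (quasi-binomial adjusted p = 0.00672). The ends of both introns are printed so that their splice sites can be read, with exon in capitals.
ZWINT 191-base intron, 5′ splice site, chr10:58118132-58118140, minus strand: AAGgtcaga
ZWINT 191-base intron, 3′ splice site, chr10:58117944-58117966, minus strand: acccctgtcttcttccccagGCC
ZWINT 151-base intron, 5′ splice site, chr10:58120048-58120056, minus strand: GTGgtatgt
ZWINT 151-base intron, 3′ splice site, chr10:58119900-58119922, minus strand: tctgccctccctctgagcagGAC
Per library scale the retained form of the 191-base intron stood at 0.994 of its EGFP level while the spliced form stood at 0.569, and the retained form of the 151-base intron stood at 0.235 against 0.586 for the spliced form.

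CENPA had 3 events in whole cells and none was called. Inclusion of a longer and a shorter version of 1 exon was 0.801 and 0.833 with EGFP siRNA against 1 and 0.813 with CHERP siRNA, and 0.932 and 0.946 against 1 and 0.936, with 10 and 8 skipping reads against 0 and 3 (quasi-binomial adjusted p = 0.689 and 0.692). The groups overlapped in both, and the few skipping reads limit what could be seen. Events with a mean of 50 reads or more had small differences in several genes. The 4 such events of BUB1 differed by at most 0.00547 in inclusion and the 7 of BUB1B by at most 0.0108, and the 10 of ZW10 by at most 0.0153.

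In the cytoplasm 196 events in 40 of the genes were tested and 3 in 2 genes were called, 1.53% against 0.969% of all events. Those were the 2 exon skipping events of MAD2L1 of 148 (1.35% against 0.974% of all), which share 1 junction, and the CENPW 5′ splice site of 10 (10% against 0.881%). There were 16 with an unadjusted p below 0.05, and limma on the log2 odds called 0. Leaving out a library left 1 or 2 calls, namely 2 without the first EGFP or the first CHERP library, 1 without the second EGFP library and 1 without the second CHERP library, while calls over all events fell from 422 to 151, 150, 157 and 238. Whether an event's change differed between fractions was tested for 166 events of the listed genes, and 0 passed the quasi-binomial test, against 0.0119% of all 33604 events. At an unadjusted p below 0.05 there were 10, and no listed event was shown to change more in 1 fraction than in the other.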

How the data were processed

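RNA of U2OS whole cells and cytoplasm was prepared by the authors with a TruSeq stranded mRNA kit and sequenced on a NextSeq. The submitters' processing notes name STAR 2.5.2b, RSEM 1.2.25 and hg19, and the methods a GENCODE annotation. The authors used rMATS, whose version is not given in the sources used here, for 5 types of splicing event, and deposited in each table read counts of both forms, with those of the 2 libraries of a group joined in 1 cell, and the effective lengths. The tables number the groups 1 and 2, taken as EGFP then CHERP from the table names, and CHERP reads were checked against this. The libraries in a cell carry no replicate number, so they are called first and second. The study's methods call the 2 libraries of a group biological replicates. P-values rest on the spread between such libraries, which was pooled in part over genes or events. For cytoplasmic events other than mutually exclusive exons only the pooled spread was used, so an event's own spread did not enter its p-value. The deposited p-values, false discovery rates, inclusion differences and 20 per-library inclusion columns were not used. A further deposited table of the authors holds mean normalized expression of 2 conditions from EBSeq, with fold and probability columns that hold their own comparison and were not used.

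The members and lists were chosen with earlier results of these data known. Reads per effective base were summed over the exon skipping and alternative splice site events of each gene, scaled by median ratios and fitted as log2(value + 0.01) with limma 3.58.1 in R 4.3.3, over genes averaging 20 or more reads. Fold changes on this scale understate those of low genes. A count table per library and gene was not used here, so no count model was run. Events were tested with a quasi-binomial model of both forms whose dispersion was moderated across events of a type, with a floor of 1, using a prior from events whose rarer form summed to 10 reads or more, a choice made after seeing the data. Benjamini-Hochberg adjustment ran over all genes, or over all events of a type, at 0.05. A separate fit over all 8 libraries tested the difference between fractions. Named genes were all members past the threshold, with ranges for the rest, and at most 3 genes of each related list. In simulated data the fit recovered 83% of 200 genes given a log2 change of 2 and 80.8% of 2415 given a change of 1 in whole cells, with 91% and 86% in the cytoplasm. Of 200 exon skipping events changed by 1.5 in log odds, 36.5% were recovered in whole cells and 46% in the cytoplasm. These events were drawn from those with more reads of the rarer form, so recovery where that form is rare was not measured. For gene changes of 2 and 1, 5.14% and 4.22% of calls were false in whole cells, and 6.67% and 3.39% in the cytoplasm. Exon annotation came from GENCODE on GRCh37. Figures were drawn with matplotlib 3.10.9 in Python 3.11.15. Alternatives were other pseudocounts, filters, scalings, event sets, variance models and tests, and each library left out in turn.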

Additional observations from a re-analysis of the deposited data

How the results depend on the processing

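The 2 libraries per group and the low number of reads on the rarer splice form limit every call, and events with few reads of the rarer form could not show small shifts. The 31 lower genes in whole cells all kept their direction in every setting, 24 passed in every setting other than leaving out a library, and 7 in all. The 27 calls in the cytoplasm kept their direction, and 17 and 12 passed in the same way, in settings where they could be tested. In fits without a library the lone library left was assumed to vary like the other group. Leaving out each library gave 7 to 35 lower and 0 to 1 higher in whole cells, and 12 to 24 lower and 0 higher in the cytoplasm. In whole cells 1 gene was higher with a pseudocount of 0.1, a mean of at least 100 reads, scaling by total reads, or limma with a trend. In the cytoplasm 0 were higher with no filter on reads, scaling by total reads, or each skipped exon used once, and 2 with limma with a trend. Called events numbered 0 in both fractions with limma on the log2 odds, and 30 in whole cells with a prior dispersion from all events, a setting chosen after seeing the data in which calls over all events rose from 1117 to 2758. Leaving out each library gave 5 to 19 in whole cells and 1 to 2 in the cytoplasm. Differences between fractions stayed at 0 calls in every setting. The sign turned for values that were not called, over the fits without a library. Log2 differences in whole cells ran from -0.23 (without the first EGFP library) to 0.29 for CENPP, from -0.17 (without the second EGFP library) to 0.26 for MAD1L1 and from -0.46 to 0.15 (without the second CHERP library) for MIS18A, and in the cytoplasm from -0.0508 (without the first EGFP library) to 0.38 for CENPP and from -0.55 to 0.35 (without the first CHERP library) for CENPI. Cytoplasmic inclusion differences ran from -0.0258 to 0.0917 for the SKA2 177-base exon against the junction that skips both exons, from -0.0457 to 0.00695 for the 87-base and -0.00668 to 0.0218 for the 197-base exon, and from -0.261 and -0.677 to 0 (without the first CHERP library) for the CENPK 99-base and 131-base exons. The causes of these shifts were not tested. No paired analysis was possible because the libraries in a cell of the tables carry no replicate number.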

Other observations

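A separate deposited table gave mean expression in a pair of columns that do not name the siRNA, so no direction is drawn from it. It holds only genes past a filter of the submitters, 6757 in all, of which 36 are among the 45 symbols described here. CHERP had the higher authors' mean in the second column, 1685 against 209, and 33 of the 36 genes had their higher mean in that same column, beside 41.8% of all genes in the table. The 3 with the higher mean in the first column were CENPT, MAD1L1 and PMF1, which with CENPP, absent from that table, were the 4 genes above 0 in the event reads of the cytoplasm. These are the authors' means, with no error. The table also held 5 genes untested in the cytoplasm, where SPC24 had too few event reads and the others none that enter a level. Their authors' means in the first and second column were 105 and 251 for CENPC, 191 and 328 for CENPQ, 195 and 335 for SGOL2, 308 and 512 for SPC24, and 415 and 959 for SPC25.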
